A study of Drosophila melanogaster with 2 samples.

Results

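Of the 2226 Engrailed-GFP peaks in the authors' list of reproducible peaks, 619 (27.8%, exact 95% interval 26.0 to 29.7%) had their summit at a single promoter. A single promoter was taken as sequence within 500 bp of a transcription start site (TSS) where no TSS within that distance belonged to a divergent pair. A divergent pair is a minus-strand TSS lying left of a plus-strand TSS of another gene, at most 1000 bp apart. The other peaks were 479 at divergent pairs and 1128 over 500 bp from any TSS. The nearest TSS of the 619 belonged to a protein-coding gene in 564 cases, to a noncoding RNA gene in 51, to a snoRNA gene in 2 and to a tRNA gene in 2. Neither the signal nor the DNA sequence was used to choose these peaks, beyond the authors' own threshold on the list.

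The peaks came from chromatin immunoprecipitation and sequencing of whole Drosophila melanogaster embryos, pooled male and female, collected between 0 and 16 h. The embryos were of a transgenic line (strain label 3T-GFP) that stably expressed Engrailed (En) fused at its C-terminus to green fluorescent protein. The description states precipitation with an anti-GFP antibody, while the antibody label reads en. There was 1 group with 2 biological replicates, numbered 1 and 3, and no second genotype, tissue or time. The labels do not say which cells or promoter drove the fusion, and a whole embryo mixes cells with and without En. The lists hold 30000 regions each for replicate 1, replicate 3 and their pool. The IDR list (irreproducible discovery rate, a measure of rank agreement between replicates) was identical to the 2226 strongest pooled regions. Its signals reached from 65.1 to 1022. Read depth is unknown from such lists, and no mock or input list was analysed here, so the background at each promoter was not measured.

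En is a homeodomain transcription factor, best known as a repressor that keeps posterior cells of each segment distinct. Homeodomains of its kind bind short A+T-rich DNA with a TAAT core. Fly core promoters differ in kind. Some carry an initiator or a TATA box and serve regulated genes. Others carry the DNA replication-related element (DRE) or the motif of the zinc-finger protein M1BP and serve broadly active genes, and ribosomal protein genes start within a polypyrimidine stretch called the TCT motif.

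The DNA under the 5 strongest single-promoter peaks that could be shown shows the kind of sequence most of them shared, which was rich in A and T. Each is the plus strand of dm6, 61 bases centred on the summit, from the RefSeq release 6 assembly, and none touches an annotated exon. Capitals mark TTTAAA and CTTAAA, 2 words noticed in these summits only after they were examined. The intervals are 3L:19590582-19590642 for CG14100, X:2137308-2137368 for ph-p, 3R:16280723-16280783 for gish, 3R:23669825-23669885 for CG31145 and 3R:28326596-28326656 for larp. G+C content was 27.9% in the CG14100, gish and larp windows and 32.8% in the ph-p and CG31145 windows. The CG14100 and gish windows hold neither word.
CG14100: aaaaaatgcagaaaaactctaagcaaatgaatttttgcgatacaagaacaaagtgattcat
ph-p: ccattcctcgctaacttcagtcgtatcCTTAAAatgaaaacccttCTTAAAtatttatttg
gish: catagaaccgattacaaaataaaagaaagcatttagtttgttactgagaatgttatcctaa
CG31145: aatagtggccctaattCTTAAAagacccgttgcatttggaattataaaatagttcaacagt
larp: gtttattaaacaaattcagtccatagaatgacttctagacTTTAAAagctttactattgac

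The start sites beside these peaks were of different kinds, and 5 are shown because the initiator and the TCT motif are compared between single and divergent promoters. Each runs on the gene's own strand from 40 bases before the TSS to 12 after it, in dm6. Capitals mark the initiator letters TCAGT in the first 3 and the TCT letters TCTTT in the last 2. The intervals are 3R:23669647-23669699 on the minus strand for CG31145, 3R:29214522-29214574 on the plus strand for lncRNA:CR31044 and 3L:1746867-1746919 on the plus strand for CG13921. They are 3R:25685039-25685091 on the minus strand for RpL27 and 2L:10408312-10408364 on the plus strand for RpS27A. Only 1 match is marked in each stretch. The lncRNA:CR31044 stretch has a second initiator match after the marked one, left in lower case. The RpS27A stretch has a second TCTTT that starts on the last marked base. CG31145 has an unmarked tcagt farther upstream, outside the place searched for an initiator. The lncRNA:CR31044 stretch also holds the TATA letters tataaa before its initiator, and the RpL27 stretch opens with the DRE letters tatcgata.
CG31145: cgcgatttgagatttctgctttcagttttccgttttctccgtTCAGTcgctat
lncRNA:CR31044: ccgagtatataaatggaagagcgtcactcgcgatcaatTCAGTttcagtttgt
CG13921: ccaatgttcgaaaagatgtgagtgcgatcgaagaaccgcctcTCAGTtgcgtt
RpL27: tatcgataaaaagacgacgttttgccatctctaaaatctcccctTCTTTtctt
RpS27A: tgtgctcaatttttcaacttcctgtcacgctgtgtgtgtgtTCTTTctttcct

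Further matches are shown in 101 bases centred on the summit, plus strand, since the comparisons of motifs rest on such windows. Capitals mark TAATTA, the palindromic homeodomain core, in CG18549 (3R:12449144-12449244) and CG1635 (3R:31588486-31588586). They mark the DRE letters TATCGATA in Abl (3L:16647924-16648024) and the M1BP letters GGTCACAC in fwd (3L:319928-320028).
CG18549: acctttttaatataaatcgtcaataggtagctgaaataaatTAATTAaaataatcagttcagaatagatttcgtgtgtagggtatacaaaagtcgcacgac
CG1635: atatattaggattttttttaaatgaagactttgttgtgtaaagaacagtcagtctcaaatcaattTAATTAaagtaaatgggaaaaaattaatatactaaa
Abl: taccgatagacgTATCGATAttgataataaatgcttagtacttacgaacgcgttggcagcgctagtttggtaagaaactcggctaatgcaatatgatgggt
fwd: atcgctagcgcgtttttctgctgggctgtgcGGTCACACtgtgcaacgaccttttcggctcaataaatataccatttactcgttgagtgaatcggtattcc

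The strongest single-promoter peak lay upstream of CG14100 at 3L:19590445-19590790, with a pooled signal of 977, 375 in replicate 1 and 606 in replicate 3. Its summit was 88 bp upstream of the TSS, between genes, and it ranked 3 in the whole list. The peak of px, a gene of wing vein patterning, had 926 pooled, 364 in replicate 1 and 564 in replicate 3, and lay 206 bp upstream of a TSS within an intron. Both were among the 4 strongest regions of each replicate. ph-p encodes a Polyhomeotic subunit of Polycomb repressive complex 1, which keeps genes silent. Its stronger peak, X:2137190-2137547, had 740 pooled, 302 in replicate 1 and 439 in replicate 3. A second ph-p summit, 423 bp downstream of another of its start sites, had 214, 75.5 and 150 in the same order.

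The next members were genes of varied function. CG1888 had a pooled signal of 671, gish, a casein kinase, 617, CG31145 588, and larp, an RNA-binding protein of translation, 570. CG18549 had 530, and the noncoding RNA genes lncRNA:CR31840, lncRNA:CR44619 and lncRNA:CR31044 had 520, 512 and 473. Sox14, an HMG-box factor of the ecdysone response, had 479, with 181 in replicate 1 and 295 in replicate 3. GstE13, a glutathione transferase, had 451, Rtnl1, a membrane-shaping reticulon, 447, and CG13921 442. The transcription factor genes Atf3 and cbt had 351 and 329, and mrj, a DnaJ-type chaperone, had 332. Alg3, a glycosylation enzyme, had 325 and moody, a receptor of the glial blood-brain barrier, had 316. All 20 ranked within the first 105 regions of replicate 1 and within the first 119 of replicate 3. The summit was upstream of the TSS in 18 of the 20, and 1 of the 20 held TAATTA within 50 bp. The summits assigned to lncRNA:CR44619, cbt, Alg3 and moody lay inside another gene and outside the gene named.

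The 619 peaks were assigned to 578 nearest genes, and 37 genes had more than 1 such peak. Rtnl1 had 4, each upstream of a different start site on 2L, with pooled signals of 447, 154, 92.8 and 71.7. Ptpmeg2, a tyrosine phosphatase, had 3 of 281, 232 and 211, and dnc, the cyclic AMP phosphodiesterase, had 3 of 256, 154 and 69.4. The second larp peak had 146. All 12 summits of Rtnl1, Ptpmeg2, dnc and larp lay upstream of the nearest TSS. Of the 619 peaks, 311 (50.2%) were at genes with a single group of start sites, 99 at the first and 209 at a later start region of a gene with several, start sites over 500 bp apart counting as separate regions.

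In the replicates, the members' signals spanned 11.7 to 375 with a median of 44.3 in replicate 1, where 618 had a region. In replicate 3 they spanned 24.7 to 606 with a median of 64.0, over all 619. The pooled signal had a median of 103 (quartiles 78.9 and 154). Replicate 3 values were higher by a median log2 difference of 0.63 ± 0.52 (SD over 618 peaks), and Spearman's rho between the replicates was 0.694. Depth and control differ between lists to an unknown extent, so this difference describes the deposited values and not binding. Replicate 1 had the higher value in 79 peaks (12.8%).

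Single-promoter peaks were more often strong than peaks far from a TSS. A pooled signal above the list's median of 97.5 was reached by 343 of 619 (55.4%) against 531 of 1128 (47.1%), an odds ratio of 1.40 (two-sided Fisher's exact test, adjusted p = 0.0019). The odds ratio was 1.42 by replicate 1 and 1.40 by replicate 3 (exact adjusted p = 0.0019 for each). With promoters narrowed to 200 bp it was 1.17 and did not pass. Against divergent pairs, of which 239 of 479 (49.9%) exceeded the median, the odds ratio was 1.25 and did not pass (exact adjusted p = 0.092). Peaks are the units of this and the other tests between peak classes, and genes those of the share of genes with a peak, so no p-value here measures spread between embryos.

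Most members stood high in both replicates, which the choice of the list favours. The IDR list rests on rank agreement between these replicates and equals the 2226 strongest regions of their pool. Among the 2226 strongest regions of replicate 1 were 506 of the 619 (81.7%), and among those of replicate 3 were 549 (88.7%). In both stood 447 (72.2%), against 338 of 479 (70.6%) at divergent pairs and 762 of 1128 (67.6%) far from a TSS. Neither difference passed (odds ratios 1.08 and 1.25, exact adjusted p = 0.59 and 0.090). Some members ranked far apart in the replicates. The Sugb peak ranked 14355 in replicate 1 and 1410 in replicate 3, that of ZnT77C, a zinc transporter, 12595 and 777, and that of CG13064 13097 and 1510. In the other direction, Got2, an aspartate aminotransferase, ranked 1091 in replicate 1 and 6381 in replicate 3. Neurochondrin ranked 1287 and 5360, and the autophagy gene Atg8a 1061 and 4996.

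**Figure D1:**
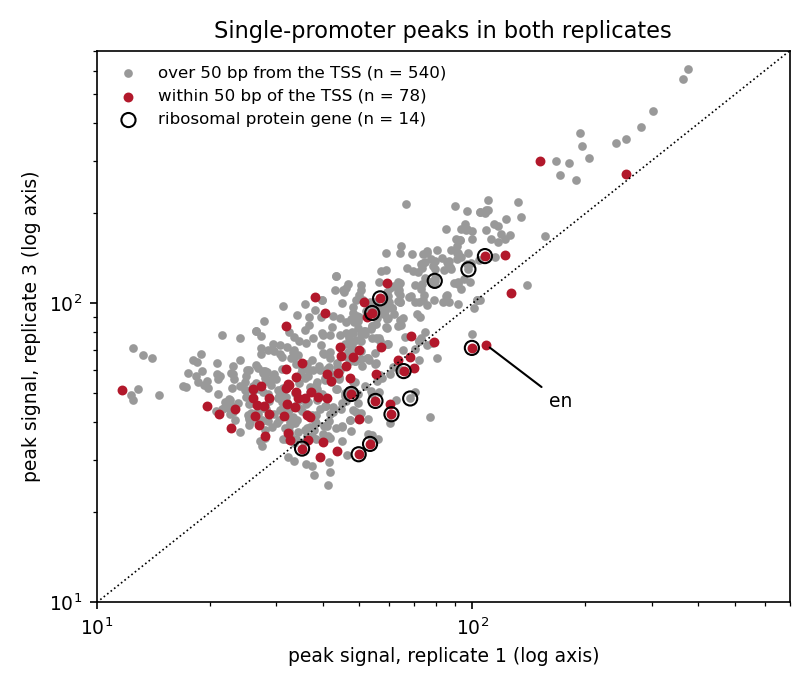
Peak signal of the 618 single-promoter peaks with a region in both lists, replicate 1 on the horizontal and replicate 3 on the vertical axis (log axes, deposited signal), with the dotted line at equal values. Most points lie above the line, while en and 8 of the 14 ringed ribosomal protein genes lie below it.

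The summits stood mainly upstream of the TSS rather than on it. Of the 619, 503 (81.3%) were upstream, 115 downstream and 1 at the TSS, with a median of −164 bp (quartiles −275 and −37, negative values upstream). Only 78 (12.6%) lay within 50 bp of the TSS. At divergent pairs 150 of 479 (31.3%) did, with a median of −62 bp. Pairs are by definition close together, which limits how far a summit between them can be from a TSS, so no test was made of this difference. The upstream summits had a median signal of 105, against 94.1 for those at or downstream of the TSS, and the 78 within 50 bp had 91.3. The annotation put 256 summits between genes, 233 in introns, 124 in untranslated or noncoding exons and 6 in coding exons. A further gene other than the nearest covered the summit in 108 of them, 67 with that gene alone and 41 together with the nearest gene.

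**Figure D2:**
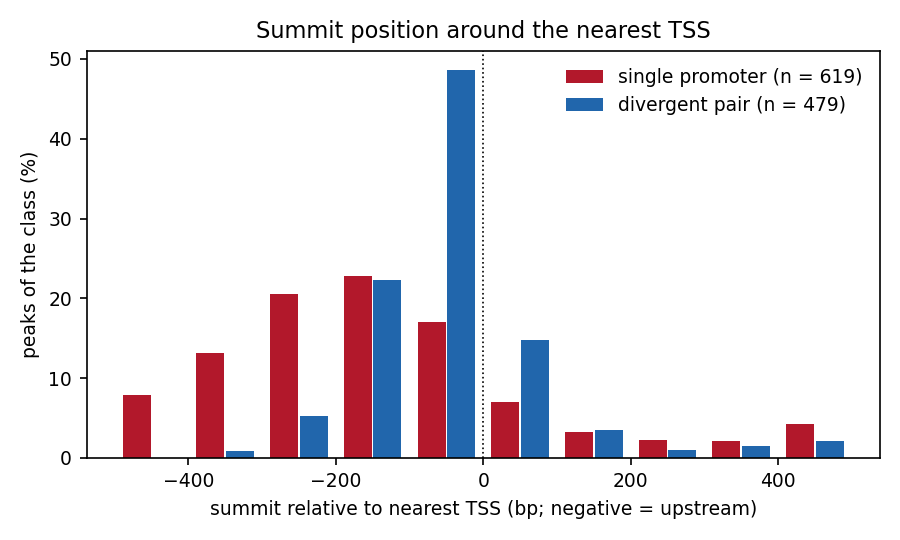
Share of peaks (%) in 100 bp bins of the summit's distance from the nearest TSS (bp, negative upstream), for 619 single-promoter and 479 divergent-pair peaks. Single-promoter summits spread over the whole upstream side with a median of −164 bp, while the divergent-pair summits crowd near the TSS with a median of −62 bp.

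G+C content dipped at the summits. In 51 bp around the summit it averaged 36.0 ± 10.9% (SD over 619 peaks), from 13.7 to 72.5%, against 43.2 ± 8.65% in windows 400 bp to both sides. It was lower at the summit than beside it in 428 of 619 (69.1%). The other peaks had a dip too, to 35.9% from 45.9% beside the summit at divergent pairs and to 34.5% from 42.2% far from a TSS. Single promoters without a peak were nearly as low: 8854 protein-coding single promoters without a summit averaged 37.6% in a window at 164 bp upstream of the TSS, where the members had 36.6%. Split into 3 groups by G+C, the 206 members lowest in G+C had a median signal of 123, the 207 in the middle 102 and the 206 highest 89.4. Spearman's rho between G+C and signal was −0.165 over the 619 peaks, a description over peaks that share the same libraries, in which base composition can also affect amplification and mapping.

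**Figure D3:**
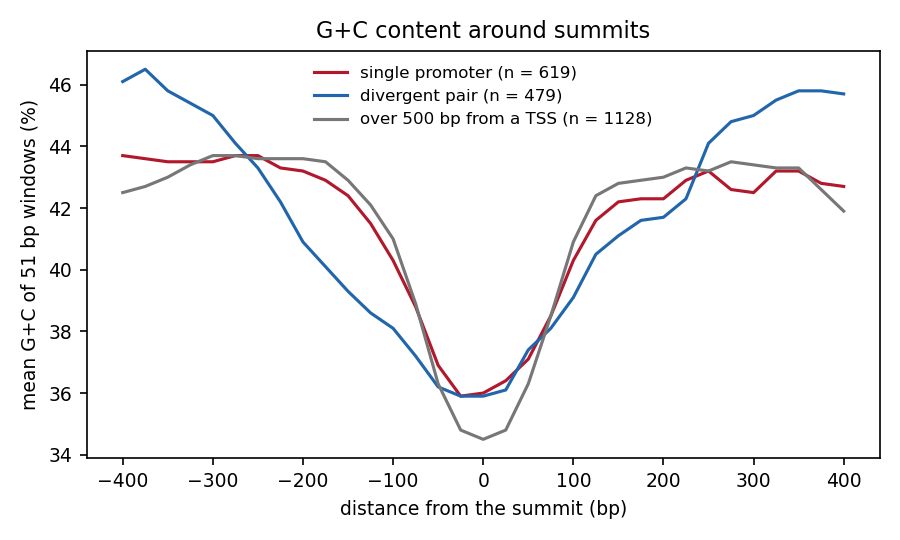
Mean G+C content (%) of 51 bp windows against distance from the summit (bp) for single-promoter, divergent-pair and distant peaks. All 3 lines fall at the summit, to 36.0% on average for the single-promoter peaks.

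Position divided the members into peaks of different make-up, in groups drawn after the data were seen and given without a test. The 127 summits 201 to 300 bp upstream had a mean G+C of 32.9 ± 9.79%, well below the 43.4% beside them. The 78 within 50 bp of the TSS had 46.4 ± 10.1%, above the 42.9% beside them. The letters CGATA, bound by the boundary protein BEAF-32, stood in 26 of these 78 (33.3%) and in 9 of the 127 (7.09%). DRE stood in 7 of the 78 and M1BP's motif in 8, but both in 0 of the 127. TAATTA stood in 1 of the 78 and in 10 of the 127, and was most frequent 101 to 200 bp upstream, in 20 of 141 (14.2%). The genes differed too: 2 of the 78 had an initiator, against 32 of the 127 (25.2%). The replicates also differed with position. Replicate 1 was higher in 18 of the 78 (23.1%) and in 18 of the 58 summits 51 to 100 bp upstream (31.0%), against 5 of the 130 lying 301 to 500 bp upstream (3.85%).

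Motif letters were searched on both strands within 50 bp of the summit and compared with the other peaks by two-sided Fisher's exact tests, adjusted over 31 tests that include those of core elements below. Of the 31, 7 passed, and 9 had an unadjusted p under 0.05. The homeodomain core TAATTA stood in 42 of 619 (6.79%), against 8.77% at divergent pairs and 7.80% far from a TSS. Neither difference passed (odds ratios 0.757 and 0.860, exact adjusted p = 0.43 and 0.75). Within 100 bp of the summit TAATTA was rarer than at divergent pairs (odds ratio 0.659, exact adjusted p = 0.043). At single coding promoters without a summit, TAATTA stood in 8.83% of 101 bp windows placed 164 bp upstream of the TSS. All motif and word shares given below for promoters without a summit come from this window. Members lie at many distances, with TAATTA in 14.2% of summits 101 to 200 bp upstream and 1.28% within 50 bp of the TSS. The shares with and without a summit are thus not matched in position. The variant TAATTG stood in 65 (10.5%), against 9.81% at divergent pairs, 113 of 1128 far from a TSS and 11.2% without a summit. In single peaks, TAATTA lay within 50 bp of the summit at CG18549 (signal 530), Sesn, a stress-response sestrin (303), and CG1635 (291). TAATTG did at Atf3 (351), mrj (332) and Fhos, an actin-organizing formin (287).

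DRE was rarer than at divergent pairs, and DRE, the M1BP letters and CGATA were more frequent than far from a TSS. DRE, written TATCGATA, stood in 11 single-promoter windows (1.78%), in 25 of 479 at divergent pairs (5.22%) and in 3 of 1128 far from a TSS (0.266%). The odds ratio was 0.329 against divergent pairs (exact adjusted p = 0.011) and 6.78 against distant peaks (exact adjusted p = 0.0092). The share in promoters without a summit was 0.599%, read only in the window 164 bp upstream of the TSS. Among members 101 to 200 bp upstream, DRE stood in 0.709%, the M1BP letters in 0% and CGATA in 14.9%. Within 50 bp of the TSS these were 8.97%, 10.3% and 33.3%. The shares without a summit in this paragraph are thus not matched to the members in position. Alg3 (signal 325), eEF1gamma, an elongation factor subunit (232), and CG1827 (181) were the strongest with DRE. The M1BP letters GGTCACAC also stood in 11 (1.78%), against 0.177% far from a TSS (odds ratio 10.2, exact adjusted p = 0.0039), 1.46% at divergent pairs (exact adjusted p = 0.87) and 0.305% without a summit. RpL30, with a signal of 168, was the strongest of these. CGATA, which DRE contains, stood in 109 (17.6%), against 10.7% far from a TSS (odds ratio 1.78, exact adjusted p = 9.7e-04), 22.8% at divergent pairs (exact adjusted p = 0.14) and 12.4% without a summit. GAGAG, bound by the GAGA factor, stood in 77 (12.4%), against 7.52% at divergent pairs (odds ratio 1.75, exact adjusted p = 0.040), 10.5% far from a TSS and 14.3% without a summit. The GAGAG call was lost without replicate 1 (odds ratio 1.42) and without replicate 3 (1.54). Without replicate 1, DRE against divergent pairs (0.435) and M1BP against distant peaks (3.67) did not pass either. Among the 1113 strongest peaks of the list, DRE against divergent pairs (0.432), M1BP (1.55) and CGATA (1.66) against distant peaks did not pass.

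**Figure D4:**
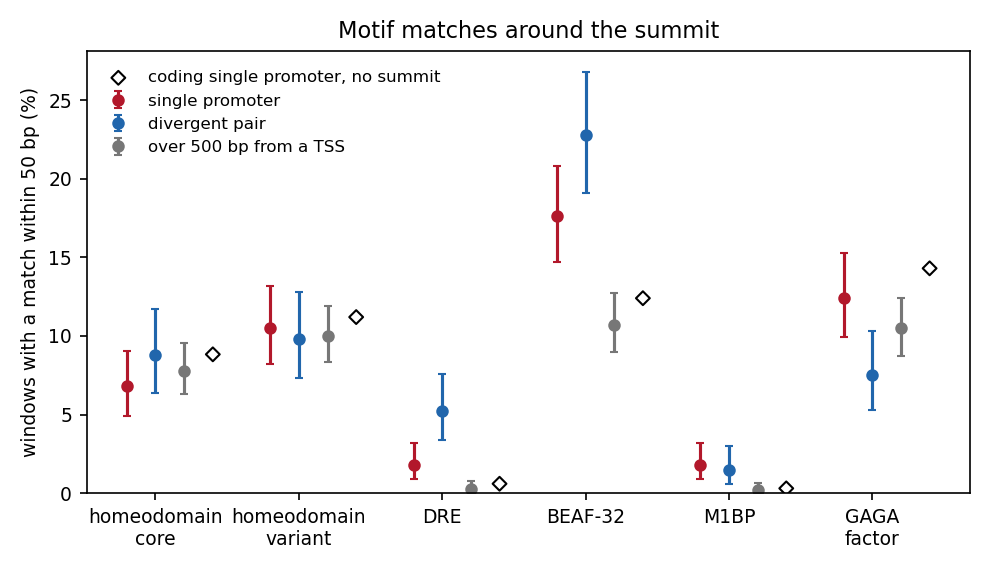
Share of 101 bp windows (%) with a match to 6 motifs around the summits of the 3 peak classes, with exact 95% intervals. Open diamonds give the share 164 bp upstream of the TSS at coding single promoters without a summit. The intervals of the homeodomain shares overlap between classes, while DRE is highest at divergent pairs and lowest far from a TSS.

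The other motifs did not pass in either contrast. GATAA, of GATA factors, stood in 20.8% of the members and 22.6% of promoters without a summit, and TATAAA near the summit in 15.8% and 17.3%. Runs of 7 A (AAAAAAA) stood in 10.8% and 11.4%, and CACACAC in 2.58% and 3.06%. The E-box CAGCTG stood in 3.88% and 4.18%, and CACGTG, the E-box of Myc, in 1.45% and 1.05%. GTGGGAA, of the Notch effector Su(H), stood in 0.808% and 1.31%. CAGGTA, of the early activator Zelda, stood in 5 of 619 (0.808%), against 2.51% at divergent pairs (exact adjusted p = 0.11) and 2.55% without a summit. Some of these overlap: GATAA shares letters with CGATA followed by A. None of the 14 motifs was found in 187 members (30.2%), which says only that these letters are not in these windows. None of the 14 passed a comparison between members of signal above and below their median by Fisher's exact test (lowest adjusted p = 0.34), and 1, TATAAA, had an unadjusted p under 0.05.

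The words marked in the first set of sequences were frequent at the summits. TTTAAA stood within 50 bp in 125 members (20.2%), and in 8.40% of windows 400 bp to either side. CTTAAA stood in 112 (18.1%), against 7.59% and 6.95% beside them. Divergent-pair peaks had 21.3% and 14.4%, the first of these above the members' share. Promoters without a summit had 15.6% and 11.3%, and peaks far from a TSS had 17.9% and 14.2%. At least 1 of the 2 stood in 217 members (35.1%). Both were noticed in these data, and A+T-rich DNA holds them more often, so no test was made.

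At the start site itself, single promoters carried the initiator more often than the divergent promoters with a peak. TCAGT, its first letter within 10 bp of its usual place on the gene's strand, stood at 114 of 619 (18.4%) against 30 of 479 (6.26%), an odds ratio of 3.38 (exact adjusted p = 4.6e-08). Single coding promoters without a summit had 16.9%. For these, the most upstream such start site of each coding gene was taken. For members it was the start site nearest the summit, of any gene kind. The sets are thus unlike, here and for the TCT and TATA letters. Among pairs of TSS and summit at most 100 bp apart the odds ratio was 1.39 and did not pass. TCTTT, the TCT letters, stood at 26 (4.20%) against 41 (8.56%), an odds ratio of 0.468 (exact adjusted p = 0.017), and at 2.78% without a summit. It did not pass without replicate 1 (0.563), with promoters of 200 bp (0.508), with pairs of 500 bp (0.647), among the 1113 strongest peaks (0.525) or for TSSs within 100 bp of the summit (0.394). The TATA letters TATAAA in their usual place stood at 18 (2.91%) against 13 (2.71%), which did not pass (exact adjusted p = 1.0), and at 10.3% of promoters without a summit. The 114 peaks at initiator genes had a median signal of 120 (51.7 in replicate 1 and 75.7 in replicate 3) and a median position of −229 bp. The 505 without had 101, 42.5 and 61.4, and −145 bp. CG1888, CG31145 and Sox14 were the strongest with an initiator, lncRNA:CR31044 and E(spl)m7-HLH with a TATA box, and CG18549 and Rtnl1 with TCT letters.

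Few single promoters had a peak. Of 12462 genes of all kinds with a single promoter, 604 (4.85%) had such a summit within 500 bp, and of 9165 protein-coding genes 541 did (5.90%, exact 95% interval 5.43 to 6.41%). Of 5526 protein-coding genes at a divergent pair, 811 had a divergent-pair summit (14.7%), and the odds ratio of single against divergent was 0.365 (two-sided Fisher's exact test, p = 2.3e-68). The 2 genes of a pair can share a peak, and the 811 genes rest on at most 479 divergent-pair peaks, so these genes are not independent. A gene with start sites of both kinds counts in both groups, so the 2 groups of this test also overlap. Noncoding RNA genes had a peak in 57 of 2550 cases (2.24%), and tRNA genes in 3 of 180 (1.67%).

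The cytoplasmic ribosomal protein genes stood highest of 25 gene lists, with a peak at 14 of 33 with a single promoter (42.4%, exact 95% interval 25.5 to 60.8%), beside the 5.90% of all coding genes. Another 43 of 56 ribosomal protein genes at a divergent pair had a divergent-pair peak, and a gene with several start sites can count in both. RpL24 had the strongest, 251 pooled, 108 in replicate 1 and 144 in replicate 3, with the summit 3 bp upstream of the TSS at 2L:13395030-13395250. RpL23A had 227 (97.6 and 130), RpL11 197 (79.4 and 119) and RpL30 168 (99.7 and 71.0). RpS4 had 160, RpS10b 148, RpL27 126, RpS27A 114, RpS29 109 and RpS3A 103. RpL37A had 94.4, RpL27A 89.3, RpS23 81.3 and RpL10 68.6.

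These 14 peaks were unlike most members in place and sequence. All lay within 92 bp of the TSS (median 21 bp), and G+C averaged 47.5 ± 6.80% (SD, 14 peaks). The TCT letters stood at 4 of the 14 start sites against 22 of the other 605 members (3.64%), and M1BP's motif stood at 4 summits against 7 (1.16%). DRE stood at 2 against 9 (1.49%), and the initiator at 1 against 113 (18.7%). Of the 78 members within 50 bp of the TSS, 11 were at ribosomal protein genes. These 78 had a mean G+C of 46.4%, DRE at 7, M1BP's motif at 8, TCT letters at 6 and an initiator at 2. High G+C, DRE and few initiators were thus shared with other members near the TSS. Their median signal was 58.9 in replicate 1 and 54.6 in replicate 3, a log2 difference of −0.12 against 0.63 over all members, and 8 of the 14 had the higher value in replicate 1. The 3 strongest, RpL24, RpL23A and RpL11, had the higher value in replicate 3. With replicate 3 alone 11 of the 33 genes had a peak, and with replicate 1 alone 17. Ribosomal protein genes are transcribed strongly in nearly all cells, also in those without En. Whether that transcription has a part in these peaks was not tested.

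The translation factors were similar in place. eEF1gamma had 232 (127 in replicate 1 and 108 in replicate 3) with its summit 37 bp upstream, eEF1alpha1 124 (57.4 and 56.4) at 79 bp upstream, and eEF2 109 (55.4 and 58.1) at 1 bp downstream. They were 3 of 28 in their list (10.7%). Other lists of broadly active genes had no single-promoter peak: 0 of 16 mitochondrial ribosomal proteins, 0 of 23 proteasome subunits, 0 of 41 oxidative phosphorylation genes, 0 of 11 aminoacyl-tRNA synthetases and 0 of 4 spliceosome proteins. The upper exact limit was 8.60% for oxidative phosphorylation and 14.8% for the proteasome, both above 5.90%, so these lists are too small to be set apart from the background. Of mitochondrial ribosomal protein genes, 59 lay at a divergent pair, and 9 of these had a peak there. Of lists of genes silent in most embryonic cells, 0 of 160 chemosensory receptors (upper limit 2.28%) and 0 of 104 cuticular proteins (3.48%) had a peak.

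Among the segment polarity genes, en and ptc had a peak. The peak of en itself lay 21 bp upstream of its TSS, at 2R:11528033-11528428 on dm6. It had 179 pooled, 109 in replicate 1 and 72.6 in replicate 3, ranking 103 and 742. Its G+C content was 58.8%. A tagged copy of en in this line can add to the reads there, which was not tested. ptc, the Hedgehog receptor that En represses in posterior cells, had 120 (69.8 and 60.8), 37 bp upstream of its TSS. Both had the higher value in replicate 1. They were 2 of 14 segment polarity genes (14.3%, exact 95% interval 1.78 to 42.8%), and ptc was 1 of 7 Hedgehog pathway genes (14.3%, 0.361 to 57.9%). Both intervals include the 5.90% of all coding genes.

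In other pathways the peaks lay farther upstream. gro, the corepressor Groucho that En recruits, had 227 (85.7 in replicate 1 and 138 in replicate 3), 93 bp upstream. sgg, the GSK-3 kinase of Wingless signalling, had 215 (75.9 and 147), 237 bp upstream, and these were 2 of 15 Wingless pathway genes. In the EGFR pathway, 2 of 11 had a peak, with 251 (92.9 and 163) at the ligand gene spi and 84.1 (31.8 and 48.7) at aos, which encodes a secreted inhibitor. The EGFR share of 18.2% was 27.3% without replicate 1 and 36.4% without replicate 3, but 9.09% with promoters of 200 bp. In the Notch pathway, 3 of 12 did. The target gene E(spl)m7-HLH had 157 (65.4 and 89.6), the receptor N 71.9 (19.6 and 55.0) and the ubiquitin ligase neur 66.7 (33.5 and 34.6). The peaks of N and neur ranked 1859 and 2146 among the 2226. All of these summits were upstream, those of spi, aos, E(spl)m7-HLH, N and neur by 167 to 380 bp.

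Among chromatin regulators, 3 genes of the Polycomb and trithorax groups had a peak. Besides ph-p, the trithorax-group genes kis, a chromatin remodeller, and Utx, a histone demethylase, had 65.6 and 65.5, close to the list's lowest signal of 65.1. These 3 were of 13 in that list (23.1%, exact 95% interval 5.04 to 53.8%), and without replicate 1 the share was 7.69%. Of 6 insulator and interband proteins, Trl, which encodes the GAGA factor, had 119 and CTCF 68.3. Among tissue genes, the neuronal RNA-binding protein gene elav had 190 (73.6 and 116), 1 of 23 neural regulators. The elav summit lay 245 bp upstream of its TSS, in an intron of another gene. The muscle genes Msp300 and sls, for a nesprin and a titin-like protein, had 221 and 120, 2 of 20. tutl and unc-5, for an immunoglobulin protein and a Netrin receptor, had 152 and 106, 2 of 18. The maternal anterior determinant gene bcd had 119, 1 of 11, the small heat shock gene Hsp27 118, 1 of 16, and the E2F partner gene Dp 75.1, 1 of 13. The share of the list that holds bcd, 9.09%, was 18.2% without replicate 1, and that of the neural regulators, 4.35%, was 8.70% without replicate 3. With promoters of 200 bp both shares were 0%, as were those of the lists that hold Msp300 and Dp. The share of the list that holds Dp was also 0% among the strongest peaks of the IDR list. Of 7 pair-rule genes, 8 Hox genes and 11 Dpp pathway genes with a single promoter, 0 had a peak there. In all, 14 of the 25 lists exceeded 5.90% and 10 had no peak, and the interval of every list but 3 includes 5.90%, the ribosomal protein list lying above it and the chemosensory and cuticular lists below.

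**Figure D5:**
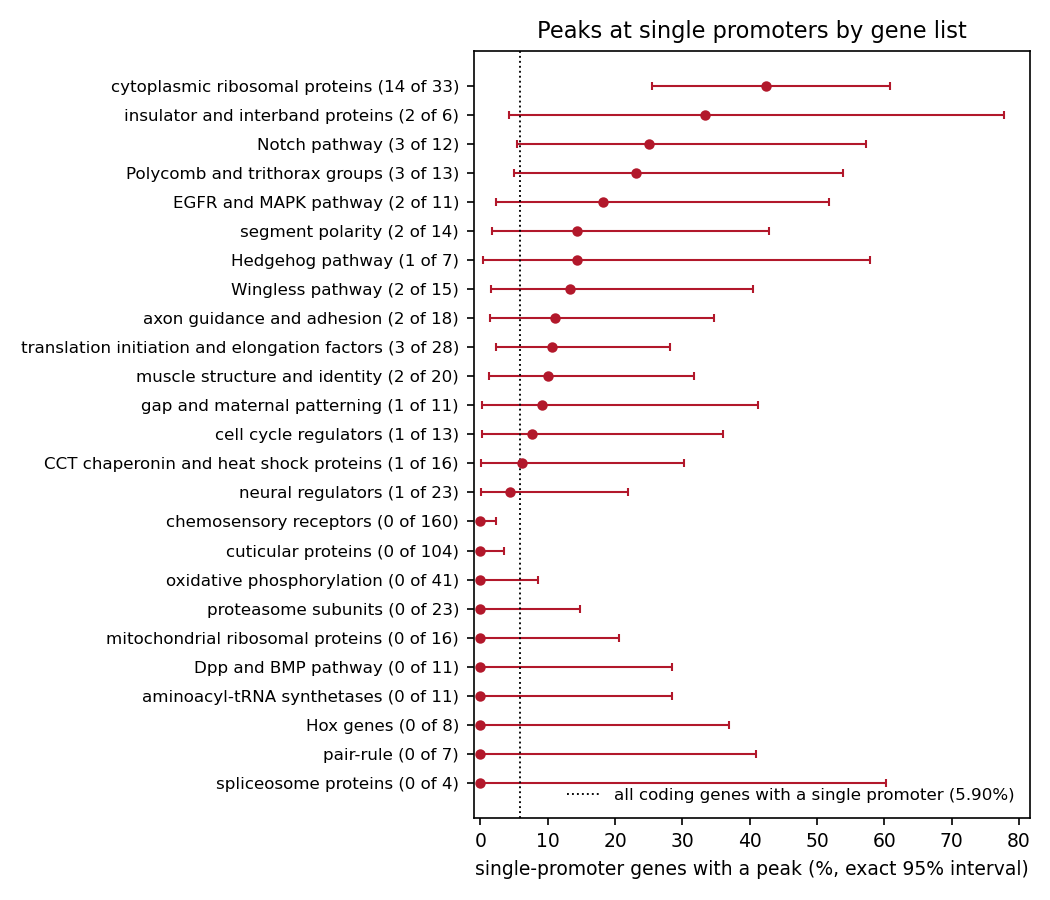
Share of each gene list's single-promoter genes that had a peak (%, points) with exact 95% intervals (bars), and the 5.90% of all coding genes as a dotted line. Ribosomal proteins, with 14 of 33, lie above the line with their whole interval, and most other intervals cross it.

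At the edges of the rule stood the following peaks. The member farthest from a TSS was that of otk, 500 bp away with 69.9, and the nearest peak left out was that of CG6602, 505 bp away with 70.2. CG9992 (72.7) was kept with the opposite TSS 1012 bp off, and Smg5 (197) was left out with a pair 984 bp wide. The weakest member, Zw, had 65.2 at rank 2221, and the strongest single-promoter region below the list, bs, had 64.9 at rank 2236.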

How the data were processed

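The authors called regions in each replicate and in the pool against a control and derived the IDR list, per the deposited text descriptions. The aligner, the caller, the IDR threshold and the depth: not given in the sources used here. The deposited signal values were used to rank peaks. The deposited −log10 q-value is the same for all IDR peaks and was not used. Coordinates are dm6, with TSSs from Ensembl BDGP6 (release 115, arms 2L, 2R, 3L, 3R, 4 and X, transposable elements out) and sequence from the RefSeq release 6 assembly. A replicate's value at a peak is that of the strongest region overlapping it. Neighbouring peaks can therefore share a value, as the 2 peaks of nrv1 did. Shares have exact 95% intervals, for counting error only. Fisher's tests were adjusted by Benjamini-Hochberg within families (6 tests of signal, 2 of overlap, 31 of motifs between classes, 14 of motifs against signal) at 0.05, with Python 3.11.15 and SciPy 1.17.1, and were checked on simulated data. No label says that the replicates were separate embryo collections. Named genes were the 20 strongest members, en, up to 4 per list, up to 3 per motif, genes with most summits and the extremes of rank or threshold. The other ribosomal protein genes, and Abl and fwd for their sequences, were named after their values were seen. The members, the 25 gene lists (8 names unmatched) and the tests were chosen with earlier results of these data known.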

Additional observations from a re-analysis of the deposited data

How the results depend on the processing

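With promoters of 200 bp the members were 14.1% of the list, and 3.19% of single coding genes had a peak. With divergent pairs of at most 500 bp these values were 33.4% and 6.51%, and among the 1113 peaks of highest signal 30.8% and 3.27%. The 5 motif contrasts that passed became 3 with promoters of 200 bp, 1 among the 1113 strongest peaks, 10 with a motif window of 100 bp and 1 with 25 bp. With 25 bp DRE (11.0) and M1BP (5.51) did not pass against distant peaks, nor DRE against divergent pairs (0.459), which at promoters of 200 bp was 0.524. GAGAG passed in no alternative but the window of 100 bp. The 2 core elements became 1 with promoters of 200 bp, with pairs of 500 bp and among the strongest peaks, and 0 for TSSs within 100 bp of the summit. With either replicate left out, 2 to 5 motif contrasts and 1 to 2 core elements passed, the lower values without replicate 1. The signal odds ratio against distant peaks was 1.17 with promoters of 200 bp. Replicate overlap against divergent pairs (odds ratio 1.08) was 0.976 with pairs of 500 bp and 0.817 among the strongest peaks. With the 2226 strongest regions of replicate 3 as the peaks it was 0.976, and with those of replicate 1 it was 1.08. Overlap was still read in both replicates, and each such peak overlaps its own replicate's list by construction. These 2 values thus leave neither replicate out of the measure. The odds ratio of TAATTA ran from 0.700 to 1.15 against divergent pairs and from 0.974 to 1.19 against distant peaks with 1 replicate left out. It passed against divergent pairs with a window of 100 bp (0.659). Against distant peaks it was 1.12 with promoters of 200 bp, 1.10 among the strongest peaks and 1.06 with a window of 25 bp. TATA against divergent pairs was 0.808 without replicate 1 and 1.10 without replicate 3, 0.962 with promoters of 200 bp, 0.690 among the strongest peaks and 0.581 for TSSs within 100 bp. With pairs of 500 bp, 1 motif (TATAAA, odds ratio 1.92) differed with signal. The cause of these shifts was not tested. No paired analysis was possible because there is 1 group. Depth is unknown, so the limit it sets on weak peaks cannot be given.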

Other observations

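Single promoters were a larger share of strong than of weak regions in the pooled list. They held 32.0% of the 100 strongest regions, 35.8% of ranks 101 to 500 and 25.2% of ranks 1001 to 2226. Below the IDR list they held 28.1% of ranks 2227 to 5000, 19.1% of ranks 10001 to 20000 and 15.8% of ranks 20001 to 30000. Divergent pairs fell from 29.0% to 6.39% over the same range. These regions include background, and the shares are given without a test. The chromosome arms were alike, with a member at 5.30% of single coding genes on 3R, the lowest, and at 6.90% (4 of 58) on chromosome 4, the highest. In 30 members, start sites of 2 or 3 genes lay within 500 bp of the summit without forming a divergent pair.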
